A study of Homo sapiens with 16 samples.

Results

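The interferon regulatory factors (IRFs) are transcription factors that share an N-terminal DNA-binding domain, and the genes examined here were the 8 family members IRF1, IRF2, IRF3, IRF4, IRF5, IRF7, IRF8 and IRF9. They were found on a human gene expression array as the probes whose gene name equals a member, which gave 9 probes for 8 of the 32080 gene symbols on the array (IRF3 has 2 probes, the others 1 each). The study placed 2 multiple myeloma (MM) cell lines, RPMI-8226 and MM.1S, in medium with DMSO (vehicle), GSK126 (an inhibitor of EZH2, which sets the repressive mark H3K27me3), UNC0638 (an inhibitor of G9a, which methylates histone H3 at K9) or GSK126 + UNC0638. Each inhibitor was used at 1 µM for 6 days, and each of the 8 groups had 2 arrays, labelled as replicates. The question put to the IRF genes was how the plasma cell factor IRF4 moved beside the members that act in interferon signalling when either or both enzymes were inhibited.

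Levels are given as log2 of the array's processed intensity minus the log2 of its 75th percentile, so that 0 is the 75th percentile of that array and 1 unit is a doubling. Differences are called where limma's adjusted p, over all probes tested in that line, was under 0.05. On all 16 arrays every member probe was well above background, so no level of a member was a bound. All arrays of a line shared 1 slide and 1 scan, so slide and line cannot be told apart, and between 46.5% and 52.8% of spots were well above background per array. The 6 plasma cell markers, among them SDC1 (CD138) and TNFRSF17 (BCMA), were well above background on all 8 arrays of both lines. PAX5, CD22 and CD5 were above background on 0 of 8 in either. The T cell marker CD3D and the monocyte marker CD14, however, were above background on all 8 arrays of both lines. CD3G and CSF1R were so on all 8 in RPMI-8226, and CSF1R on 0 of 8 in MM.1S. RPMI-8226 and MM.1S are established lines, each from 1 patient, and in extracts of whole cultures fewer cells of a kind and less RNA per cell cannot be told apart.

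As background, IRF4 drives the formation of plasma cells and is needed by myeloma cells, and IRF8 is its closest relative in the haematopoietic lineage. IRF3, IRF5 and IRF7 wait in the cytoplasm until kinases downstream of nucleic acid sensors phosphorylate them, after which they enter the nucleus and switch on interferon genes. IRF9 is the DNA-binding part of ISGF3, the complex that type I interferon uses to switch on interferon-stimulated genes (ISGs), and IRF1 and IRF2 act on many of the same sites as activator and repressor.

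Promoter sequences are shown because IRFs and STATs bind short elements in promoters, whose letters can be searched for. RefSeq (GRCh38.p14) gave start sites for 5 members with 9 entries, and the 250 bases before each start were searched on both strands for the IRF core AANNGAAA, the STAT element (GAS) TTCNNNGAA, the interferon-stimulated response element (ISRE), which is GAAA, NN and GAAA, and the composite element with ETS factors (EICE), which is GGAA, NN and GAAA. Matches are in capitals, and sequences run 5′ to 3′ on the gene's own strand. The ISRE and EICE letters overlap the core. The first 3 sequences are the whole 250 bases of IRF4 (chr6:391502-391751, plus strand), IRF9 (chr14:24161015-24161264, plus strand) and the first start of IRF8 (chr16:85902580-85902829, plus strand), chosen for the sizes of their changes among the members with an entry. The last 2 are 30-base pieces around the match in IRF1 (chr5:132490878-132490907, minus strand) and around that in 1 of the 4 start sites of IRF5 (chr7:128940627-128940656, plus strand).
IRF4: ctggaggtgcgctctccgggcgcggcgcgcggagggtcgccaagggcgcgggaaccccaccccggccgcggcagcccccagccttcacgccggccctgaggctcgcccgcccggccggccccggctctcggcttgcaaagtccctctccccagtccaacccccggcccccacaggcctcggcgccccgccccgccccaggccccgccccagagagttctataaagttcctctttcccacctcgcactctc
IRF9: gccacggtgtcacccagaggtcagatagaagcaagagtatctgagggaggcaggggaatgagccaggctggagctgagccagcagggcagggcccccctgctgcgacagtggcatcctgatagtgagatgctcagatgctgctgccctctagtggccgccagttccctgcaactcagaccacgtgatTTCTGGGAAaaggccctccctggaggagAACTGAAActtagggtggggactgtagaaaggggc
IRF8: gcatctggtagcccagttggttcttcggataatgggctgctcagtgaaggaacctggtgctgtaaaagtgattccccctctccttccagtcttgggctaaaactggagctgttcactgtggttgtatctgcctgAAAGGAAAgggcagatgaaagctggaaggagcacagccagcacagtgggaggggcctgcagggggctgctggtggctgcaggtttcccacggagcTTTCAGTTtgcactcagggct
IRF1: acagcctgatTTCCCCGAAatgacggcacg
IRF5: gtctagccacTTTCGTTTCCcctggggccg

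IRF9 held an IRF core match, AACTGAAA, 35 to 28 bases before its start and a GAS match, TTCTGGGAA, 63 to 55 bases before it. IRF8 held 2 core matches before its first start, AAAGGAAA at 116 to 109 bases and TTTCAGTT, which is the core read on the opposite strand, at 21 to 14 bases. IRF1 held a GAS match at 124 to 116 bases, and IRF5 a single stretch, TTTCGTTTCC, that matches the core and the EICE on the opposite strand 33 to 24 bases before 1 of its starts. The IRF4 window held none of the 4 motifs, and no member's window held the ISRE. Among 35116 promoter windows of the same length, 20.31% held the core, 3.02% the ISRE, 2.41% the EICE and 6.57% the GAS letters. The IRF4 window was 76% G and C with 28 CpG dinucleotides, against 59.6% and 4 for IRF9 and 55.6% and 2 for the first start of IRF8, where the median window had 58% and 11. The IRF1 window, at 74.4% and 29, was like that of IRF4, and the IRF5 windows ran from 56.8% to 77.6% with 3 to 30.

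Treatment with GSK126 + UNC0638 moved the family apart in both lines. In RPMI-8226 cells IRF9 and IRF7 were called higher and IRF4 and IRF8 lower, and in MM.1S cells IRF9, IRF5 and IRF7 were called higher and IRF4 lower. With both inhibitors 4 of 8 members were thus called in RPMI-8226, where limma called 13.1% of genes tested (8.06% higher and 5.03% lower), and 4 of 8 in MM.1S, where it called 55.2% (23.2% higher and 32% lower). The MM.1S count of members was therefore no larger a share than that of all genes. The median change over the 8 members was -0.17 in RPMI-8226 and 0.15 in MM.1S, beside -0.12 and -0.11 over all genes tested. In the plot of levels by array, the GSK126 + UNC0638 points of IRF9 lie above all DMSO points of their line and those of IRF4 below them.

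**Figure D1:**
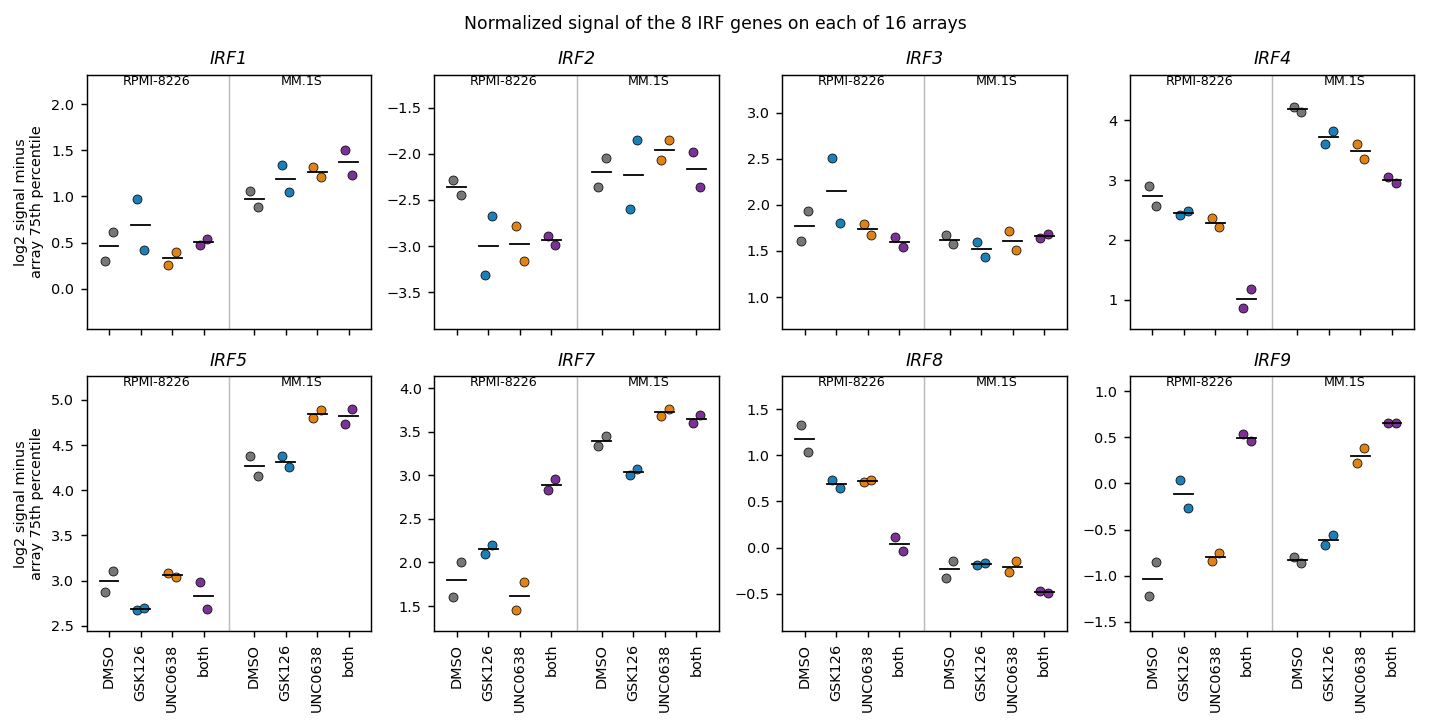
Normalized log2 level of each IRF gene (y axis, 0 is the array's 75th percentile) on every array, by treatment (x axis), for RPMI-8226 and MM.1S, with 1 point per array and 2 per group. IRF4 goes down and IRF9 goes up from DMSO to the combination in both lines, and IRF8 goes from 1.32 and 1.03 to 0.11 and -0.04 in RPMI-8226. Bars mark the group means.

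IRF4, the factor that plasma cells and myeloma cells depend on, was read by a probe at chr6:411002-411061 (GRCh37, plus strand). In RPMI-8226 its levels were 2.90 and 2.56 with DMSO, 2.42 and 2.49 with GSK126, 2.36 and 2.21 with UNC0638 and 0.86 and 1.17 with GSK126 + UNC0638. The 2 combination arrays were the lowest of the 8 and stood apart from all others. Against DMSO, IRF4 fell by 1.72 on the log2 scale (SE 0.18), which is 3.28-fold lower (limma, adjusted p = 0.00303). It was 2.71-fold lower with the combination than with GSK126 (adjusted p = 0.0128), the only member called in that comparison, in which limma called 2.77% of genes. Against UNC0638 alone it was 2.41-fold lower (adjusted p = 0.0186), 1 of 3 members called where 3.7% of genes were. Those single-agent contrasts were lost on leaving out GSK126 replicate 1 (adjusted p = 0.07), GSK126 replicate 2 (0.0573) or combination replicate 1 (0.085) for the first, and UNC0638 replicate 1 (0.125), UNC0638 replicate 2 (0.0834) or combination replicate 1 (0.117) for the second.

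In MM.1S, IRF4 levels were 4.23 and 4.15 with DMSO, 3.61 and 3.83 with GSK126, 3.61 and 3.35 with UNC0638 and 3.06 and 2.94 with GSK126 + UNC0638. Both DMSO arrays were above every treated array, and both combination arrays were below all others. IRF4 was 2.27-fold lower with the combination (log2 difference -1.18, SE 0.12, limma adjusted p = 0.000772) and 1.63-fold lower with UNC0638 (-0.71, SE 0.12, adjusted p = 0.0111). The UNC0638 call was lost without DMSO replicate 1 (adjusted p = 0.0587) or UNC0638 replicate 2 (0.0546). With GSK126 the difference was -0.47 (95% interval -0.77 to -0.16, adjusted p = 0.0767) and was not called. The combination was 1.64-fold below GSK126 (adjusted p = 0.00789), whereas its difference of -0.48 from UNC0638 had an adjusted p of 0.0561.

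IRF8, which in B cells and myeloid cells binds DNA with the same ETS partners as IRF4, was read at chr16:85956052-85956111 (plus strand). Its RPMI-8226 levels were 1.32 and 1.03 with DMSO, 0.73 and 0.65 with GSK126, 0.70 and 0.73 with UNC0638 and 0.11 and -0.04 with GSK126 + UNC0638. The combination arrays were below all 6 others, and the arrays of either single agent were below both DMSO arrays. IRF8 was 2.21-fold lower with the combination (log2 difference -1.14, SE 0.15, limma adjusted p = 0.00705), while the differences of -0.49 with GSK126 (adjusted p = 0.324) and -0.46 with UNC0638 (0.38) were not called. With the replicate number as a block, its difference of -0.68 between the combination and UNC0638 also passed (adjusted p = 0.0422, against 0.0747 without the block).

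In MM.1S, IRF8 was at -0.33 and -0.14 with DMSO, -0.19 and -0.17 with GSK126, -0.27 and -0.15 with UNC0638 and -0.47 and -0.50 with GSK126 + UNC0638. The groups other than the combination overlapped, and the 2 combination arrays were the lowest. The difference from DMSO was -0.24 (95% interval -0.48 to -0.01, adjusted p = 0.0721) and was not called. Over 18 alternatives that difference ran from -0.34 to -0.06. Against GSK126 the combination differed by -0.30 (adjusted p = 0.0502, not called), and this was called in 8 of 18 alternatives (adjusted p from 0.0384 to 0.0499). Mean IRF8 levels with DMSO were 1.18 in RPMI-8226 and -0.24 in MM.1S, so the fall in RPMI-8226 started from a higher level of the same probe. That difference in level was not tested, and slide and line cannot be told apart in it.

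IRF9 was read at chr14:24635500-24635559 (plus strand). In RPMI-8226 its levels were -1.22 and -0.85 with DMSO, 0.03 and -0.26 with GSK126, -0.84 and -0.75 with UNC0638 and 0.53 and 0.45 with GSK126 + UNC0638. Both GSK126 arrays and both combination arrays were above every DMSO and UNC0638 array, with the combination highest. IRF9 was 2.89-fold higher with the combination (log2 difference 1.53, SE 0.18, limma adjusted p = 0.00443). The 1.89-fold difference with GSK126 was not called (0.92, SE 0.18, adjusted p = 0.124), nor was that of 0.24 with UNC0638 (adjusted p = 0.778). The combination was 0.61 above GSK126 on the log2 scale (adjusted p = 0.16, not called). Over UNC0638 it was 2.44-fold higher (adjusted p = 0.0166), a call lost without either UNC0638 replicate or either combination replicate (adjusted p from 0.066 to 0.116).

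In MM.1S, IRF9 was at -0.80 and -0.86 with DMSO, -0.67 and -0.56 with GSK126, 0.22 and 0.38 with UNC0638 and 0.65 and 0.66 with GSK126 + UNC0638. The order of the single agents was the other way round here, with the UNC0638 arrays above the GSK126 and DMSO arrays. The combination raised IRF9 2.79-fold (log2 difference 1.48, SE 0.09, adjusted p = 0.000208) and UNC0638 raised it 2.18-fold (1.13, SE 0.09, adjusted p = 0.00143). With GSK126 the difference was 0.21 (95% interval -0.01 to 0.44, adjusted p = 0.199). The combination was 2.41-fold above GSK126 (adjusted p = 0.0011) and 0.36 above UNC0638 on the log2 scale (adjusted p = 0.0553, not called).

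IRF7, the factor that amplifies type I interferon and is itself an ISG, was read at chr11:612643-612702 (minus strand). Its RPMI-8226 levels were 1.60 and 2.01 with DMSO, 2.10 and 2.20 with GSK126, 1.45 and 1.78 with UNC0638 and 2.83 and 2.96 with GSK126 + UNC0638. The combination arrays were above all others, the GSK126 arrays lay just above the DMSO arrays, and the UNC0638 and DMSO arrays overlapped. IRF7 was 2.13-fold higher than with DMSO (log2 difference 1.09, SE 0.19, limma adjusted p = 0.0181) and 2.42-fold higher than with UNC0638 (adjusted p = 0.0222), and with the replicate block its 1.67-fold difference from GSK126 passed too (adjusted p = 0.0409, against 0.118 without it). The call against DMSO was lost without DMSO replicate 1 (0.89, adjusted p = 0.0695), combination replicate 1 (1.15, 0.081) or combination replicate 2 (1.03, 0.073), and that against UNC0638 without any 1 of the 4 arrays compared (adjusted p from 0.0629 to 0.136).

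In MM.1S, IRF7 was at 3.33 and 3.45 with DMSO, 3.002 and 3.07 with GSK126, 3.68 and 3.77 with UNC0638 and 3.60 and 3.69 with GSK126 + UNC0638. The GSK126 arrays were the lowest, and the UNC0638 and combination arrays were above both DMSO arrays. IRF7 was 1.19-fold higher with the combination (0.25, SE 0.09, adjusted p = 0.0492), 1.26-fold higher with UNC0638 (0.33, SE 0.09, adjusted p = 0.0354) and 1.52-fold higher with the combination than with GSK126 (adjusted p = 0.00449). The first call was lost on leaving out any 1 of the 8 MM.1S arrays (adjusted p from 0.0692 to 0.201), and the second without any 1 of the 6 DMSO, GSK126 or UNC0638 arrays (0.0575 to 0.156). GSK126 alone gave -0.35 (adjusted p = 0.0644, not called).

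IRF5, which relays Toll-like receptor signals through MYD88, was read at chr7:128589323-128589382 (plus strand). In MM.1S its levels were 4.37 and 4.15 with DMSO, 4.38 and 4.25 with GSK126, 4.80 and 4.89 with UNC0638 and 4.73 and 4.90 with GSK126 + UNC0638. The UNC0638 and combination arrays were all above the DMSO and GSK126 arrays, which overlapped. IRF5 was 1.47-fold higher with the combination (log2 difference 0.55, SE 0.12, limma adjusted p = 0.00868), 1.5-fold higher with UNC0638 (0.58, SE 0.12, adjusted p = 0.0157) and 1.41-fold higher with the combination than with GSK126 (adjusted p = 0.0196). The UNC0638 call was lost without DMSO replicate 2 (0.47, adjusted p = 0.0711), UNC0638 replicate 1 (0.63, 0.0534) or UNC0638 replicate 2 (0.53, 0.0791), and the last one without GSK126 replicate 1 (0.0508), GSK126 replicate 2 (0.0943) or combination replicate 2 (0.0914). In RPMI-8226, IRF5 was at 2.87 and 3.11 with DMSO, 2.67 and 2.69 with GSK126, 3.09 and 3.04 with UNC0638 and 2.98 and 2.69 with GSK126 + UNC0638. The GSK126 arrays were below both DMSO arrays, the other groups overlapped with DMSO, and no difference from DMSO was called (adjusted p = 0.537 for the combination).

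IRF3, the constitutive member that TBK1 phosphorylates, had 2 probes, with positions given as chr19:50164080-50165258 and chr19:50164025-50164084 (minus strand). The probe read for the gene ran from 1.54 to 2.50 in RPMI-8226 and from 1.44 to 1.71 in MM.1S, and its combination difference from DMSO was -0.18 (adjusted p = 0.66) and 0.05 (0.737). The other probe gave -0.35 (adjusted p = 0.438) and -0.22 (0.0519), so the probes differed in sign in MM.1S and neither was called. The highest RPMI-8226 level of both probes was on GSK126 replicate 1, at 2.50 and 2.23, where the other GSK126 array read 1.80 and 1.31.

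IRF1, an activator induced by interferon gamma, was read at chr5:131819442-131819501 (minus strand). In RPMI-8226 its levels were 0.30 and 0.62 with DMSO, 0.97 and 0.42 with GSK126, 0.26 and 0.39 with UNC0638 and 0.47 and 0.54 with GSK126 + UNC0638. In MM.1S they were 1.06 and 0.89 with DMSO, 1.34 and 1.04 with GSK126, 1.32 and 1.21 with UNC0638 and 1.50 and 1.24 with GSK126 + UNC0638. The RPMI-8226 groups overlapped, and in MM.1S only the GSK126 group reached down to the DMSO range. The MM.1S combination difference of 0.39 (95% interval 0.04 to 0.75) was not called (adjusted p = 0.0623), but it was with quantile normalization (0.53, adjusted p = 0.0328), with the percentile over probes detected on all arrays (0.58, 0.02), with normexp (0.49, 0.0222), with a filter for all 8 arrays (0.39, 0.0463) and with the replicate block (0.39, 0.0111).

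IRF2, which competes with IRF1 as a repressor, was read by a dim probe at chr4:185308860-185308875 (minus strand), with processed intensities from 25.5 to 132. In RPMI-8226 its levels were -2.29 and -2.44 with DMSO, -3.31 and -2.68 with GSK126, -2.78 and -3.16 with UNC0638 and -2.89 and -2.99 with GSK126 + UNC0638. All 6 treated arrays were below both DMSO arrays. The difference was -0.57 (95% interval -1.15 to 0.01, adjusted p = 0.162) with the combination, and no contrast was called. In MM.1S the groups overlapped, and the combination difference was 0.03 (95% interval -0.64 to 0.70, adjusted p = 0.926).

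**Figure D2:**
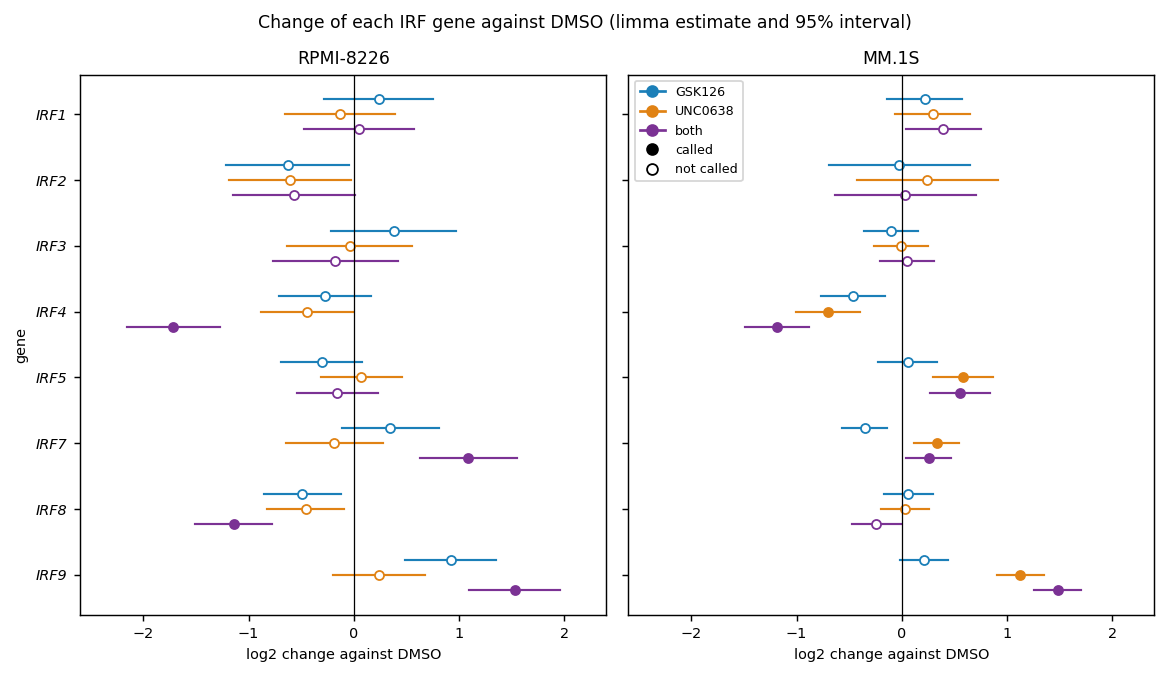
Log2 change of each IRF gene against DMSO (x axis) in RPMI-8226 and MM.1S for GSK126, UNC0638 and both, as limma's estimate with its 95% interval, filled where called. With both inhibitors IRF4 lies at -1.72 and -1.18 and IRF9 at 1.53 and 1.48, and IRF1, IRF2 and IRF3 have no filled point.

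With the single agents the calls of members fell to 1 line and 1 agent. In RPMI-8226, limma called 0 of 8 members with GSK126 and 0 of 8 with UNC0638, where it called 0.712% and 0.724% of genes. In each, 3 members had an unadjusted p under 0.05, as had 10.9% and 9.94% of genes. In MM.1S it called 0 of 8 with GSK126, where it called 8.11% of genes (2 members and 28.9% of genes had an unadjusted p under 0.05), and 4 of 8 with UNC0638 (IRF5, IRF7 and IRF9 higher, IRF4 lower), where it called 30.5% of genes (13.8% higher and 16.7% lower). Between the combination and GSK126 in MM.1S, 4 of 8 members were called against 38.3% of genes. Between the combination and UNC0638, 0 of 8 were called by limma in MM.1S, against 14% of genes, and 3 members and 34.1% of genes had an unadjusted p under 0.05. The comparisons with DMSO in a line share its 2 DMSO arrays, so their errors are not independent.

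The combination was then compared with the sum of the single-agent changes. In RPMI-8226, IRF4 changed by -0.28 with GSK126 and -0.45 with UNC0638, which add to -0.72, beside -1.72 for the combination. This excess of -0.99 (SE 0.26) had an adjusted p of 0.712 across all probes and was not called. IRF7 had a sum of 0.16 against 1.09, an excess of 0.93 (SE 0.27, adjusted p = 0.864). For IRF9 the sum was 1.16 against 1.53. In MM.1S the sums were close to the combination, at -1.17 against -1.18 for IRF4 and at 1.34 against 1.48 for IRF9. By limma 0 of 8 members were called in either line, where 0.175% and 0% of genes were. At an unadjusted p under 0.05 there were 2 members and 4.14% of genes in RPMI-8226, and 1 member and 9.77% of genes in MM.1S.

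The lines were compared in 1 fit over all 16 arrays. The IRF4 change with the combination was 0.53 lower on the log2 scale in RPMI-8226 than in MM.1S (RPMI-8226 minus MM.1S, -0.53, SE 0.22, limma adjusted p = 0.152), and the IRF9 change differed by 0.05 (SE 0.20, adjusted p = 0.904), neither of them called. Of 8 members 3 were called for the combination, where 14.4% of genes were, namely IRF8 (adjusted p = 0.00874), IRF7 (0.0299) and IRF5 (0.0388). With UNC0638 1 of 8 was called, IRF9 (adjusted p = 0.0481), where 3.21% of genes were. With GSK126 0 of 8 were called by limma, where 0.913% of genes were called, and 3 members and 11.2% of genes had an unadjusted p under 0.05. The slide belongs to this contrast as well, since each line was on its own.

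The contrast between IRF9 and IRF4 was also read within each array, as the IRF9 level minus the IRF4 level. Only its change has a meaning, since the probes differ. It was -4.12 and -3.41 on the RPMI-8226 DMSO arrays and -0.32 and -0.72 with the combination, and -5.02 and -5.00 on the MM.1S DMSO arrays against -2.41 and -2.29. No treated array reached down to a DMSO array of its line. The change was 3.24 in RPMI-8226 and 2.67 in MM.1S, with a mean of 2.95 (exact permutation test within lines, two-sided, 36 arrangements, p = 0.0556, adjusted over 7 pairs 0.0556), and 0.0556 is the smallest p these arrangements can give. With RPMI-8226 arrays exchanged only within their replicate number, a restriction chosen after seeing the data, the exact test had 24 arrangements and p = 0.0833, again the smallest possible. The same p-values belonged to every other member set against IRF4, whose mean differences were 2.12 for IRF7, 1.67 for IRF1, 1.65 for IRF5, 1.38 for IRF3, 1.18 for IRF2 and 0.76 for IRF8. IRF8 thus moved closest to IRF4, and IRF9 farthest from it.

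**Figure D3:**
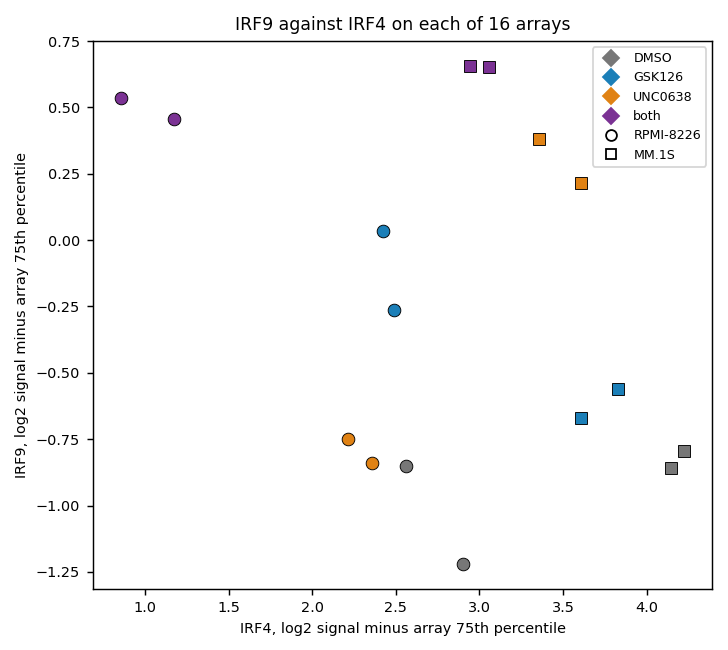
Normalized log2 level of IRF9 (y axis) against that of IRF4 (x axis) on the 16 arrays, with symbols for line and treatment. In both lines the DMSO arrays lie at high IRF4 and low IRF9 and the combination arrays at lower IRF4 and higher IRF9, and the lines are offset along the IRF4 axis, with DMSO means of 2.73 in RPMI-8226 and 4.19 in MM.1S.

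Across the 16 arrays, after each line's mean was taken off, Pearson's r was -0.86 between IRF4 and IRF9, 0.84 between IRF4 and IRF8, 0.82 between IRF7 and IRF9 and -0.76 between IRF4 and IRF7. These values describe arrays that share treatments, slides and scaling. Among 14823 genes, those most like IRF4 by r were CARM1 (0.98), ZNF138 (0.98), MRPS5 (0.97), CLPTM1L (0.96) and XLOC_l2_001192 (0.96). CARM1 is an arginine methyltransferase and MRPS5 a protein of the mitochondrial ribosome. Those most like IRF9 were MX1, UBD, IFI44L, SLC37A2 and FCGR2B (all 0.96). Of these, MX1, an antiviral GTPase, and IFI44L are on the list of interferon-stimulated targets read below. IFI44L was well above background on only 5 arrays of RPMI-8226 and 4 of MM.1S.

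The genes around the family were read from lists of each role. Of 20 interferon-stimulated targets, 12 of 19 tested were called higher and 0 lower with the combination in RPMI-8226 (median change 2.61). Of all genes, 8.06% were called higher there and 5.03% lower. In MM.1S 17 of 20 targets were called higher and 1 lower (median 1.98), where 23.2% of all genes were called higher and 32% lower. OAS3, IFI44L, USP18 and GBP1 in RPMI-8226 and at least IFI44L in MM.1S were not well above background with DMSO. Such genes entered through treated arrays only, so they could hardly be called lower. The counts and medians of the list include them. The targets listed are genes that ISGF3, IRF1 and IRF7 act on. The largest rise with both groups above background was that of IFI27 in RPMI-8226 (4.42, SE 0.99, limma adjusted p = 0.0367), and in MM.1S that of IFIT1, which binds foreign RNA (4.55, SE 0.33, adjusted p = 0.000296). IFI44L was not well above background with DMSO and rose at least 11.5-fold in RPMI-8226 (adjusted p = 0.0171) and at least 21.3-fold in MM.1S (0.000263), where the bound sets the lowest detected signal of each DMSO array, or the probe's own if higher, as the DMSO level. BST2, which tethers budding virus, was the 1 that fell in MM.1S (-0.38, SE 0.09, adjusted p = 0.0131). With GSK126 the list gave 1 higher of 19 in RPMI-8226 (median 1.42, where 0.712% of genes were called) and 8 higher and 1 lower of 20 in MM.1S (median 0.56, where 8.11% were). With UNC0638 it gave 0 of 19 by limma in RPMI-8226 (median 0.23, where 0.724% of genes were called) and 14 higher of 20 in MM.1S (median 1.08, where 30.5% were).

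Of 9 interferon receptors, Janus kinases and STATs, 2 were called higher in RPMI-8226 (median 0.72) and 5 higher and 1 lower in MM.1S (median 0.40) with the combination, where 13.1% and 55.2% of all genes were called. STAT2, which IRF9 binds in ISGF3, differed by 0.81 in RPMI-8226 (limma adjusted p = 0.165, not called) and was 1.85-fold higher in MM.1S (0.88, SE 0.10, adjusted p = 0.000961). In MM.1S, JAK2 rose by 1.14 (adjusted p = 0.00156) and IFNAR2, a chain of the type I interferon receptor, fell by 0.92 (0.00119). Of the interferon genes themselves, 9 of 10 listed were on the array, but only 1 in RPMI-8226 and 2 in MM.1S were detected often enough to be tested, and 0 were called by limma with the combination. With UNC0638, 1 of the 2 in MM.1S was called higher, where 13.8% of genes were. The other comparisons of a single agent with DMSO gave 0 calls by limma on this list.

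Among 15 tested transducers that activate IRF3, IRF5 and IRF7, 1 was called higher and 1 lower in RPMI-8226 (median -0.08), and 7 higher and 2 lower in MM.1S (median 0.25), where 13.1% and 55.2% of all genes were called. TLR7, an endosomal sensor of single-stranded RNA upstream of IRF5 and IRF7, was the RPMI-8226 gene that rose, at least 16.5-fold from a DMSO level not well above background (limma adjusted p = 0.00142), and it rose at least 7.39-fold in MM.1S (0.000724). MB21D1 (cGAS, the cytosolic DNA sensor) fell by 0.60 in RPMI-8226 (adjusted p = 0.0354) and by 0.87 in MM.1S (0.000897). TLR3, a sensor of double-stranded RNA, was called in MM.1S (adjusted p = 0.0205), but only 1 of its 2 DMSO arrays was well above background, so no size is given.

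Of 11 tested partners and plasma cell genes around IRF4, 3 were called higher and 0 lower in RPMI-8226 (median -0.20), and 4 higher and 4 lower in MM.1S (median 0.09), where 13.1% and 55.2% of all genes were called in either direction. BCL6, the germinal centre repressor that opposes the plasma cell programme, was 4-fold higher in RPMI-8226 (SE 0.18 on the log2 scale, limma adjusted p = 0.00152) and at least 32.1-fold higher in MM.1S (0.00015), where the DMSO arrays were not well above background. PRDM1 (BLIMP1), which with IRF4 fixes plasma cell fate, was 1.63-fold lower in MM.1S (-0.71, SE 0.11, adjusted p = 0.00324) and differed by -0.40 in RPMI-8226 (adjusted p = 0.244). KLF2 was 3.56-fold lower in MM.1S (-1.83, SE 0.12, adjusted p = 0.000233), and its difference of -1.87 in RPMI-8226 had an SE of 0.72 and was not called (adjusted p = 0.132). SPIB, an ETS partner of IRF4 on EICE sites, rose by 1.05 in MM.1S (adjusted p = 0.00351). Of 3 IRF2 binding proteins, IRF2BP2 rose by 0.51 in MM.1S (adjusted p = 0.0118), and 0 of 3 were called by limma in RPMI-8226.

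**Figure D4:**
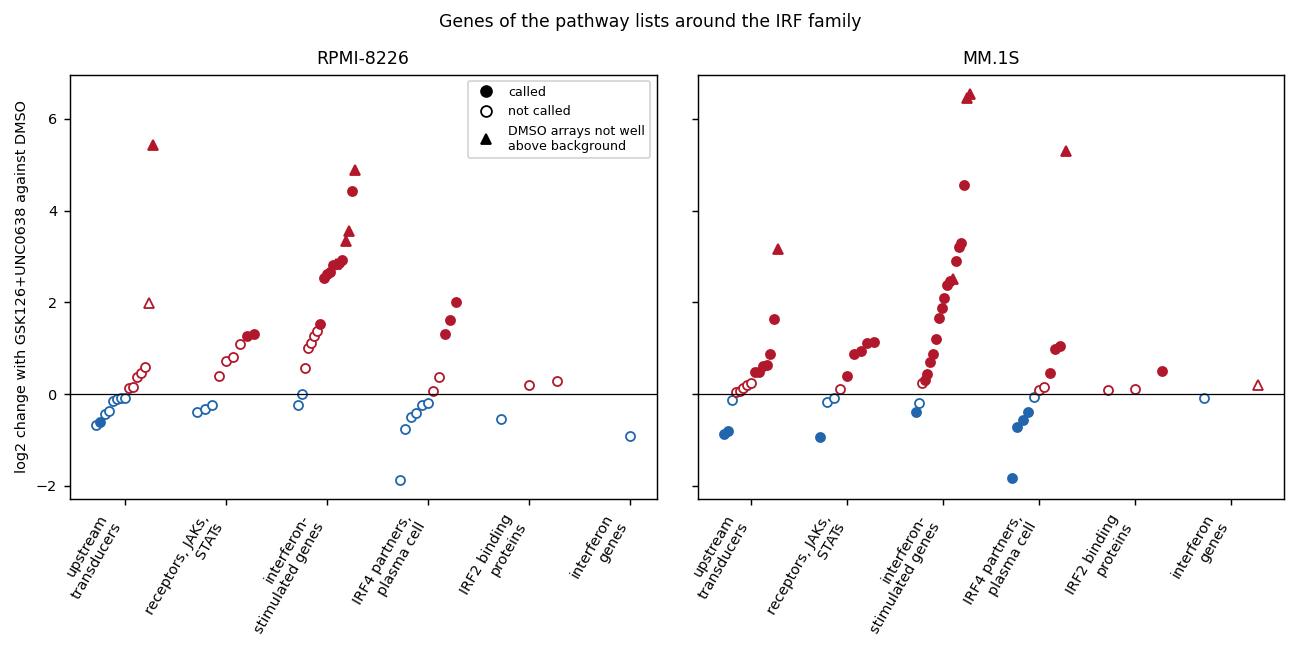
Log2 change with GSK126 + UNC0638 against DMSO (y axis) of each tested gene of the lists around the IRF family (x axis), in RPMI-8226 and MM.1S, filled where called, with triangles where the DMSO arrays were not well above background. The interferon-stimulated genes have the highest median in both lines, with 12 of 19 and 17 of 20 called higher, where 8.06% and 23.2% of all genes were. Genes drawn as triangles entered through treated arrays only and could hardly be called lower.

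Markers of other cell types moved with the combination as well, and several of them with a single agent. The summed level of the T cell markers CD3D, CD3E, CD3G and CD5 went from -1.82 and -1.45 with DMSO to between 3.55 and 3.76 with both inhibitors in RPMI-8226, and from -3.16 and -2.58 to between -1.64 and -1.60 in MM.1S. In RPMI-8226, 3 of 3 tested T cell markers were called higher, as was 1 of 2 in MM.1S (CD3E), where 8.06% and 23.2% of all genes were. CD3E was not well above background with DMSO in either line. It entered through treated arrays only, so it could hardly be called lower, and the undetected CD5 was not tested. The filter thus partly sets these counts. The mature B cell sum rose in both lines, from at most -4.02 to between -0.70 and 0.29 in RPMI-8226 and from at most -4.67 to between -3.04 and -2.69 in MM.1S, through MS4A1 (CD20), while PAX5 and CD22 stayed undetected. The sum of the monocyte markers CD14 and CSF1R went from at most -0.09 to between 1.85 and 2.29 in RPMI-8226, where CD14 was called, and stayed between -2.93 and -2.74 in MM.1S. With GSK126 alone, CD14 (6.05-fold, beside 6.29-fold with the combination) and CD3D were called higher in RPMI-8226, where 0.656% of genes were. UNC0638 alone gave calls of higher for CD3D, CD3E, CD3G and MS4A1 in RPMI-8226 (0.649% of genes). In MM.1S it gave them for CD3E and, not well above background, MS4A1 (13.8% of genes). Of 6 plasma cell markers, 2 were called lower and 1 higher in RPMI-8226 and 5 lower in MM.1S. Of all genes, limma called 5.03% lower and 8.06% higher in RPMI-8226 and 32% lower in MM.1S. The part of these markers' changes in the IRF4, IRF8 and IRF9 results was not tested.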

How the data were processed

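RNA of the 16 cultures was hybridised by the authors to 1-colour Agilent human arrays and read with Feature Extraction 10.7, per the submitters' processing notes. The deposited intensity is the processed signal, already background-subtracted. The deposited series table, which holds intensities and not log2 values, matched that signal in 99.996% of 939472 values after rounding. Here the log2 of each array's 75th percentile was subtracted from its log2 signal. Control spots and outlier spots (220 to 358 per array) were left out, and repeat spots were averaged. A probe entered if both arrays of any group of the line detected it (23199 probes in RPMI-8226 and 25102 in MM.1S), so it could enter through treated arrays alone. A gene was read by its brightest probe over the 16 arrays. Where that probe did not enter in a line, the gene was not tested there. Tests used limma 3.58.1 in R 4.3.3 over the 8 arrays of a line (p adjusted across those probes by Benjamini-Hochberg). The study's methods name no gene-by-gene test of the arrays. The fits reported are without a replicate block.

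The members, lists and motifs were chosen with earlier results of these data known, and the core motif after the promoters were read. Named besides the members were STAT2, PRDM1 and KLF2, the largest called rise and fall of each list in each line, and the 5 genes most like IRF4 and IRF9, and some genes under that rule are not reported here. With 2 arrays a group, the p-values measure the spread between these arrays. Same-numbered RPMI-8226 arrays deviated together (r from 0.25 to 0.42 in 6 of 6 pairs of groups). They were taken as paired only in the permutation test restricted to exchanges within replicate number and in the alternative with a replicate block. The SEs and adjusted p-values of the reported RPMI-8226 fits do not use this pairing. The block changed calls of IRF7 and IRF8 in that line, as given below. In MM.1S r was above 0.1 in 5 of 6, and the arrays were not taken as paired, though the block was also run there. The exon or UTR under each probe was not analysed here. Alternatives were other normalizations, filters, probe choices, fits and leaving out each array.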

Additional observations from a re-analysis of the deposited data

Results flagged for a closer look

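4 changes of IRF genes differed between the lines by a direct test (1 limma fit over 16 arrays, RPMI-8226 minus MM.1S, log2). The IRF8 change with GSK126 + UNC0638 differed by -0.90 (SE 0.17, adjusted p = 0.00874), from changes of -1.14 in RPMI-8226 and -0.24 in MM.1S, and it kept its call under all 22 alternatives run. The IRF7 change with the combination differed by 0.84 (SE 0.21, adjusted p = 0.0299), from 1.09 and 0.25, and lost its call in 8 of 22. The IRF5 change with the combination differed by -0.71 (SE 0.19, adjusted p = 0.0388), from -0.16 and 0.55, and lost its call in 13 of 22. The IRF9 change with UNC0638 differed by -0.89 (SE 0.20, adjusted p = 0.0481), from 0.24 and 1.13, and lost its call in 15 of 22. Slide and line cannot be told apart in any of them.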

How the results depend on the processing

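Over 18 alternatives the fall of IRF4 with GSK126 + UNC0638 stayed called in both lines (-1.89 to -1.50 in RPMI-8226, -1.24 to -0.87 in MM.1S), as did the rise of IRF9 (1.30 to 1.71 and 1.30 to 1.67), and no result changed sign while called. Leaving out 1 array gave -1.89 to -1.54 and -1.24 to -1.13 for IRF4. Members called with the combination against DMSO numbered 3 to 4 in RPMI-8226 and 3 to 5 in MM.1S. Counts of members called moved elsewhere, for causes that were not tested. In RPMI-8226 the combination against GSK126 gave 1 as reported, 3 with normexp and 4 in 1 fit over all arrays, and 0 to 1 on leaving out 1 array; against UNC0638 it gave 3, then 4 at most (IRF8 gained with normexp, the replicate block or 1 fit over all arrays), 1 with only the 2 groups compared and 0 to 3 on leaving out 1 array. GSK126 against DMSO gave 0, then 1 (IRF9) in 1 fit over all arrays. In MM.1S, UNC0638 against DMSO gave 4, then 2 with no filter and 1 to 4 on leaving out 1 array. The combination against UNC0638 gave 0, then 1 with normexp or the percentile over detected probes and 2 with a filter for all 8 arrays or the mean over probes of a gene. GSK126 against DMSO gave 0, then 1 (IRF7) with that filter. Among single calls against DMSO with the combination, IRF7 was lost in 4 of 18 alternatives in RPMI-8226 and in 11 of 18 in MM.1S, while IRF8 in RPMI-8226 and IRF5 in MM.1S were kept in 18.

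With the replicate number as a block, IRF4 with the combination was -1.72 in RPMI-8226 and -1.18 in MM.1S, IRF9 was 1.53 and 1.48, and the difference of their changes was 2.95. The block moved the members called in RPMI-8226 from 1 to 2 for the combination against GSK126 (IRF7) and from 3 to 4 against UNC0638 (IRF8), changing no other call of a member in that line, and in MM.1S from 0 to 1 for GSK126 against DMSO, where the numbers were not taken to pair the arrays. It also ended the line difference of IRF9 with UNC0638 (-0.89, adjusted p = 0.0521) and, in MM.1S, added IRF1 with UNC0638 (0.29, adjusted p = 0.0444) and IRF8 for the combination against GSK126 (-0.30, 0.0394), which was also called in 7 other alternatives.

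The scaling moved the median of all probes with the combination from -0.14 and -0.12 to 0.00 and 0.07 with the percentile over detected probes. Small changes such as those of IRF1 and IRF3, and of IRF7 and IRF8 in MM.1S, are relative to that shift. Over 18 alternatives the MM.1S combination difference ran from -0.34 to -0.06 for IRF8 and from 0.20 to 0.58 for IRF7. The alternatives for the line differences and for the combination against each single agent were chosen after seeing the data. 2 arrays a group limit the precision.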
